A study of Homo sapiens with 6 samples.

Results

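The type I interferon response genes are the genes that a cell switches on when interferon alpha or beta signals to it. Here they are a list of 35 named genes, looked up by symbol in a deposited table of 17280 genes. All 35 were found, with RIGI written there under its older symbol DDX58; 33 were abundant enough to be tested, and CMPK2 and RSAD2 were not. RNA was sequenced from 6 samples of CAL-27, a human tongue squamous carcinoma cell line, grown as floating spheres, a culture that favours stem-like tumour cells. The LF3 group has 3 libraries, named by their titles for LF3, a small molecule that keeps beta-catenin from binding TCF4 in the Wnt pathway; the series design gives an exposure of 24 h, while the treatment field of the same libraries gives elesclomol-Cu, a copper-carrying drug, likewise for 24 h. The CON group has 3 libraries labelled as normal control, and whether they received a vehicle is not stated. Which agent the LF3 libraries received cannot be told apart from these labels, so every direction below compares libraries by title. Both groups are the same cell line, and no label says whether replicates came from separate cultures, so each p-value reflects library-to-library spread that may be technical only.

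In this pathway, interferon alpha and beta bind a receptor made of IFNAR1 and IFNAR2. The attached kinases TYK2 and JAK1 then phosphorylate STAT2, which joins IRF9 in the complex ISGF3. ISGF3 and related IRF proteins bind promoter elements built from repeats of GAAA, and the genes behind them make RNA sensors, enzymes that destroy or trap viral RNA, blocks to viral entry and release, and the ubiquitin-like protein ISG15. Epithelial cells start the pathway when RIGI and IFIH1 meet foreign RNA or when CGAS meets DNA in the cytosol, and many tumour lines keep part of it running without infection.

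Most member promoters that could be read hold this element in the reference genome. Windows of 250 bases before to 50 bases after each start site were taken from RefSeq (GRCh38.p14), where 29 of the 35 members matched with 38 windows; OASL, USP18, OAS2, IRF7, IFIT2 and MX2 are named only. The motif searched was GAAA, then any 2 bases, then GAAA, on both strands, with overlapping matches counted. It occurred in 22 of 38 member windows (57.9%) and in 1255 of all 35116 windows (3.57%). By gene, 18 of 29 members had it (62.1%), against 4.38% of all genes with a window. The list was drawn from genes known to respond to interferon, so this share describes the list and not these samples. A match is a description of letters and not a bound site.

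Shown are the 160 bases just before the outermost listed start site, 5′ to 3′ on the gene's own strand, with complete matches of either strand in capitals. IFIT3, IFIT5 and OAS3 are shown because they were among the members with the largest changes that hold the motif. MX1 also ranked there, but in its outermost window the match lies after the start site, at bases 12 to 21. A further IFIT5 match spans the start site, at bases -4 to 6, so only its first part is shown, in lower case. IFI27 and ISG20, which fell, and ISG15, the most abundant member and one that was not called, were added for contrast after their values were seen.
IFIT3, chr10:89327837-89327996, plus strand: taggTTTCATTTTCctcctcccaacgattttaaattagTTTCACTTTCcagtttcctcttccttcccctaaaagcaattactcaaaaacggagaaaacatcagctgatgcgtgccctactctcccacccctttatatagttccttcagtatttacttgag
IFIT5, chr10:89414408-89414567, plus strand: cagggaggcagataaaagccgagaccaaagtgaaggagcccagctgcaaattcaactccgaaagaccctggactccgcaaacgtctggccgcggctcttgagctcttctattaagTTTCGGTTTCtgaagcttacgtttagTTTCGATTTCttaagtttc
OAS3, chr12:112938314-112938473, plus strand: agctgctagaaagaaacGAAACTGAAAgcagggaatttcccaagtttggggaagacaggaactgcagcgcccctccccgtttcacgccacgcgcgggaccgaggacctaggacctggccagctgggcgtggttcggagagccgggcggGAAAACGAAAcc
IFI27, chr14:94110576-94110735, plus strand: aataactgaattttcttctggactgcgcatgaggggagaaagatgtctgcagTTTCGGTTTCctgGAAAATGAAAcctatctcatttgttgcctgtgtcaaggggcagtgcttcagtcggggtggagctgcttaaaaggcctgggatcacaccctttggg
ISG20, chr15:88638856-88639015, plus strand: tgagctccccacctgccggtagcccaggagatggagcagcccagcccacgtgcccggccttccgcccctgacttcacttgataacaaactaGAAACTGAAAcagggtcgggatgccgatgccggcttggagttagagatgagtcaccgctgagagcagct
ISG15, chr1:1013337-1013496, plus strand: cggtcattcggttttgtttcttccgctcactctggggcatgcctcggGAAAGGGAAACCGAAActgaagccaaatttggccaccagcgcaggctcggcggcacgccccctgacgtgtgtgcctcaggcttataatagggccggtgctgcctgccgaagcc

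The members with and without the motif included both directions. Of the 17 tested members with it, 10 were higher in LF3, 3 lower and 4 not called, with a median log2 fold change of 0.49; over all tested genes 53.2% were called higher and 32.3% lower. Of the 10 tested members with a window and no match, 7 were higher, 1 lower and 2 not called, with a median of 1.01. No test was made of that difference. These calls are on deposited values. After the median-ratio rescaling described below, ISG15, IFI6 and IFI44, which hold the motif, were called lower, and DDX60 lost its call. STAT2 and CXCL11, which have no match, were called lower as well.

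Values are TPM, each gene's share of the sequenced transcripts corrected for its length and scaled to the same total in every library. Read depth cannot be recovered from TPM and is unknown here. Differences on the log2(TPM + 1) scale, LF3 less CON, are called log2 fold changes; the scale understates the change of low genes, and each is given ± its standard error from limma. Group values are means ± SD, n = 3 each. A gene was called when its limma p, adjusted by Benjamini-Hochberg over the 12195 genes that averaged 1 TPM or more, was under 0.05. Called genes were the rule in these data, as 85.5% of tested genes passed and the groups did not overlap in 86.2%. The median of all tested genes was 0.24, and it became -0.0055 once a size factor per library, the median of its ratios to each gene's geometric mean, was divided out, so counts are given both ways.

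Most interferon response genes were higher in LF3, and a smaller set was lower. Of 33 tested members, 22 rose, against 53.2% of all tested genes called higher, and 5 fell, against 32.3% called lower. The members called higher thus make up 66.7% of those tested and the members called lower 15.2%. Changes of at least 2-fold on the log2(TPM + 1) scale were called upward in 14 members and downward in 4 as deposited, where the background was 20.8% and 11.1%. With median-ratio rescaling HERC6 (0.88) and CXCL10 (0.99) no longer reached 2-fold upward, and IRF7 (-1.13) reached it downward. RIGI, MX2 and XAF1 were called higher and passed 2-fold only by their ratio of means (2.01, 2.34 and 2.23), so they are not among the 14. The median log2 fold change of the tested members was 0.79. After median-ratio rescaling 21 were higher and 10 lower (background 42.6% and 42.7%), with a median of 0.54, and after quantile normalization 21 were higher and 9 lower (background 43.9% and 41.5%), with a median of 0.65. Groups that did not overlap were found in the same numbers as deposited calls, 22 with LF3 above CON (background 53.5%) and 5 with LF3 below CON (background 32.7%). In such bulk RNA, fewer cells of a type and less RNA per cell cannot be told apart.

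**Figure D1:**
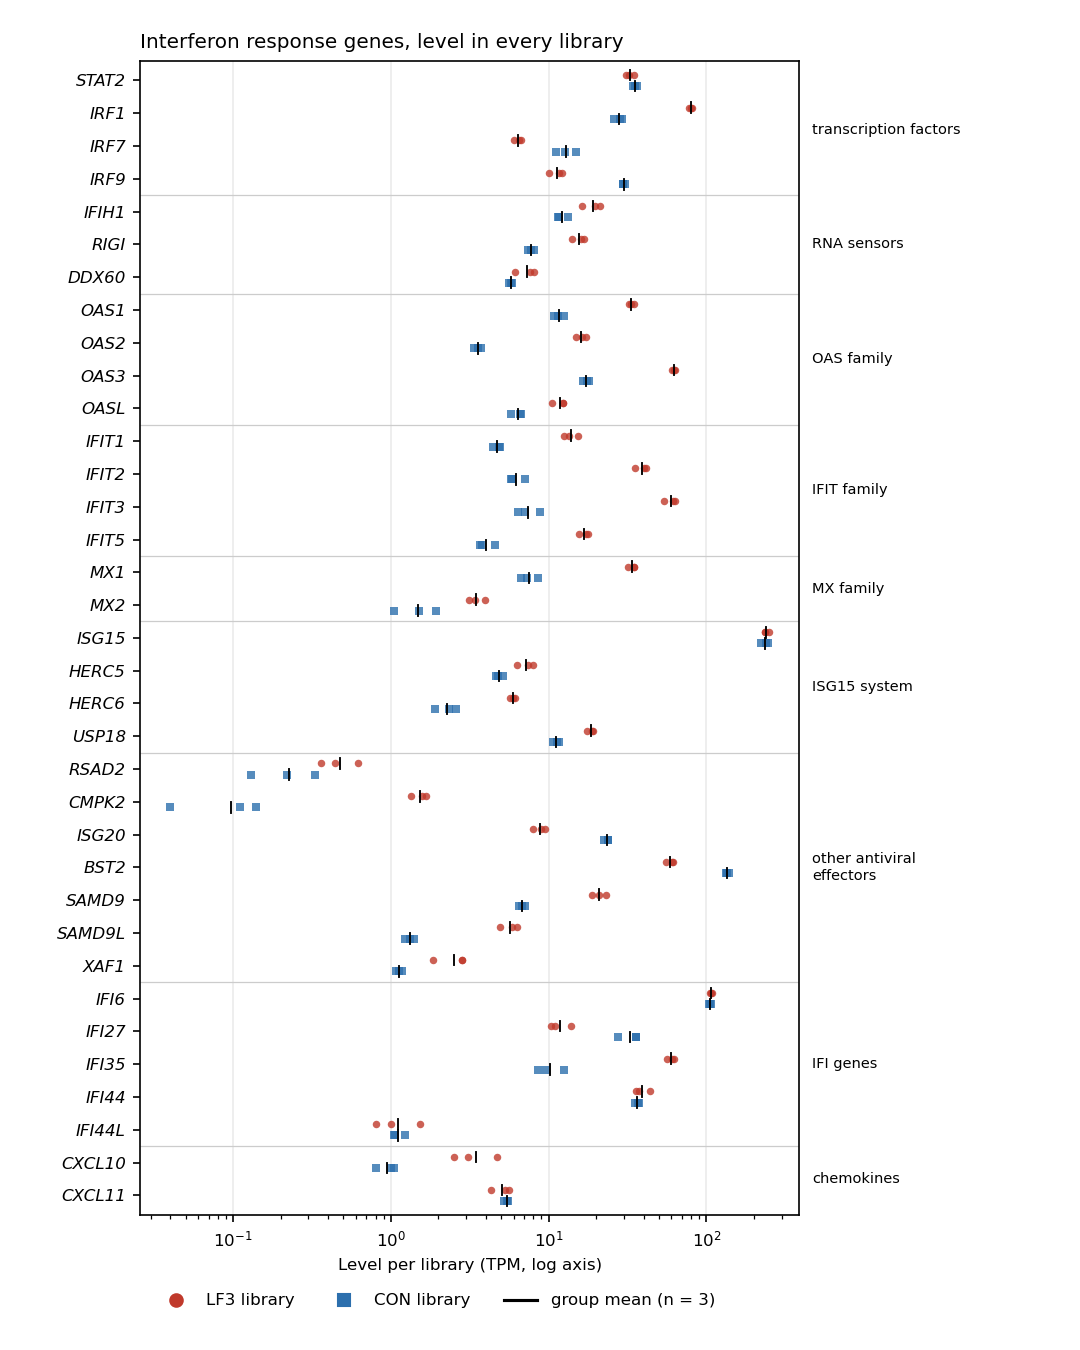
Level of each of the 35 interferon response genes in TPM on a log axis, by role. Red circles are the 3 LF3 libraries, blue squares the 3 CON libraries and black ticks the group means; the IFIT, OAS and MX families lie to the right in LF3, while BST2, ISG20, IFI27, IRF9 and IRF7 lie to the left.

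Summed over all 35 members, the level was 1030 to 1076 TPM in the LF3 libraries and 810 to 825 TPM in the CON libraries, a 1.30-fold ratio of means. ISG15, BST2 and IFI6, the most abundant members in CON, hold much of that sum. Without these 3 genes the sum was 617 to 676 TPM in LF3 and 328 to 348 TPM in CON, a 1.92-fold ratio. Leaving out genes picked for a high CON level itself tends to raise this ratio. ISG15 and IFI6 were not called, and BST2 was 58.9 TPM in LF3 and 136 TPM in CON. Within groups the libraries were close: the coefficient of variation of a tested member had a median of 8.87% in LF3 and 5.57% in CON.

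Among the transcription factors of the pathway, IRF1 rose while the ISGF3 subunit IRF9 and the amplifier IRF7 fell. IRF1, which drives interferon and immune genes and is itself induced by interferon gamma, stood at 81.3, 80.2 and 77.6 TPM in LF3 and at 25.9, 28.2 and 29.3 TPM in CON, a log2 fold change of 1.49 ± 0.054 (limma adjusted p = 6.27e-10). IRF9, the DNA-binding subunit of ISGF3, stood at 11.7, 10.1 and 12.2 TPM in LF3 and at 29.4, 30.6 and 29.5 TPM in CON (-1.33 ± 0.072). The groups lie far apart for both genes and in opposite directions. IRF7, the factor that amplifies interferon alpha production, was 6.50, 6.71 and 6.07 TPM in LF3 and 11.1, 14.8 and 12.7 TPM in CON (-0.89 ± 0.098). STAT2, the other ISGF3 subunit in the list, was 32.3, 34.9 and 30.8 TPM in LF3 and 34.3, 35.3 and 36.1 TPM in CON, with overlapping groups (-0.11 ± 0.057, limma adjusted p = 0.0973). The STAT2 value was called lower after median-ratio rescaling (-0.37), after quantile normalization (-0.46) and without LF3 replicate 2 (-0.16, limma adjusted p = 0.0323).

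The sensors of foreign RNA were moderately higher. RIGI, which recognises the ends of viral RNA, stood at 16.7, 16.1 and 14.1 TPM in LF3 and at 7.77, 8.11 and 7.43 TPM in CON (0.92 ± 0.078). IFIH1, which encodes MDA5 and recognises long double-stranded RNA, stood at 21.2, 19.7 and 16.3 TPM in LF3 and at 11.7, 13.2 and 11.5 TPM in CON (0.60 ± 0.095). For both sensors every LF3 library was above every CON library, and both kept their calls after rescaling. DDX60, a helicase described as a partner of RIGI, was 8.06, 7.67 and 6.15 TPM in LF3 and 5.78, 5.61 and 5.83 TPM in CON (0.29 ± 0.096, limma adjusted p = 0.0149). Its groups came within 0.5 TPM of each other, and its call was lost after both rescalings (limma adjusted p = 0.557 and 0.115) and without LF3 replicate 1 or 2 (limma adjusted p = 0.0656 and 0.0550).

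All 4 members of the OAS family were called higher, as were 53.2% of all tested genes. OAS enzymes sense double-stranded RNA and make short adenylate chains that act as a second messenger. OAS3, the longest of these proteins, stood at 63.4, 62.7 and 60.3 TPM in LF3 and at 16.4, 17.5 and 18.0 TPM in CON (1.79 ± 0.052, limma adjusted p = 1.40e-10). OAS2 stood at 16.2, 17.3 and 14.9 TPM in LF3 and at 3.35, 3.54 and 3.74 TPM in CON (1.91 ± 0.079). OAS1 stood at 34.6, 33.2 and 32.3 TPM in LF3 and at 10.8, 11.4 and 12.6 TPM in CON (1.45 ± 0.066). These 3 genes stand next to each other on chromosome 12 with no other coding gene between them, and their ratios of means were 3.59 for OAS3, 4.56 for OAS2 and 2.88 for OAS1. OASL, which lacks the synthetase activity and binds RIGI, was 12.3, 12.4 and 10.5 TPM in LF3 and 5.79, 6.6 and 6.71 TPM in CON (0.79 ± 0.086), the smallest change of the family.

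The IFIT family, several of whose proteins bind the ends of foreign RNA and block its translation, held the top 2 changes among tested members on the log2(TPM + 1) scale. IFIT3 stood at 61.8, 63.5 and 53.6 TPM in LF3 and at 8.75, 6.43 and 7.11 TPM in CON, an 8.03-fold ratio of means and a log2 fold change of 2.85 ± 0.10 (limma adjusted p = 4.98e-10). IFIT2 stood at 40.1, 41.2 and 35.2 TPM in LF3 and at 5.84, 7.06 and 5.76 TPM in CON (2.46 ± 0.086). The groups of both genes are separated several times over their own spread. IFIT5 stood at 17.7, 17.2 and 15.5 TPM in LF3 and at 4.58, 3.68 and 3.77 TPM in CON (1.83 ± 0.089). IFIT1, often used as the marker of the response, stood at 13.5, 15.3 and 12.6 TPM in LF3 and at 4.83, 4.88 and 4.46 TPM in CON (1.37 ± 0.084). IFIT1 was the lowest of the family in LF3, while in CON the family lay within 4.01 to 7.43 TPM. The IFIT genes form a cluster on chromosome 10, and all 4 kept their calls after both rescalings, at 1.12 to 2.60 on the log2 scale with median-ratio rescaling.

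Both MX genes, which encode dynamin-like GTPases that trap viral nucleocapsids, were called higher, as were 53.2% of all tested genes. MX1 stood at 34.9, 34.95 and 31.8 TPM in LF3 and at 7.32, 8.56 and 6.70 TPM in CON (2.04 ± 0.084, limma adjusted p = 1.67e-09). MX2, its neighbour on chromosome 21, stood at 3.93, 3.39 and 3.14 TPM in LF3 and at 1.92, 1.5 and 1.05 TPM in CON (0.86 ± 0.13). In both groups MX1 was the more abundant of the pair, and neither gene's groups overlapped.

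In the ISG15 system the modifier itself was not called while genes for its enzymes rose. ISG15, a ubiquitin-like protein joined to other proteins and also secreted, was the most abundant member in both groups at 233.9, 234.7 and 250.2 TPM in LF3 and 240.2, 223.0 and 244.5 TPM in CON. Its groups overlapped, with a log2 fold change of 0.023 ± 0.044 (limma adjusted p = 0.639), but rescaling by median ratio gave a call of lower (-0.25, limma adjusted p = 0.00158), as did quantile normalization (-0.21, limma adjusted p = 0.00167). HERC5, the ligase that attaches ISG15 in human cells, stood at 7.98, 7.40 and 6.26 TPM in LF3 and at 4.75, 4.61 and 5.13 TPM in CON (0.49 ± 0.094). HERC6, its neighbour on chromosome 4 and the ISG15 ligase of mouse, stood at 6.14, 5.98 and 5.70 TPM in LF3 and at 2.57, 2.34 and 1.90 TPM in CON (1.09 ± 0.097). Both ligase genes were separated between the groups. USP18, which removes ISG15 and dampens signalling at IFNAR2, stood at 18.7, 17.4 and 19.1 TPM in LF3 and at 11.3, 11.6 and 10.6 TPM in CON (0.67 ± 0.065). Of the other conjugation enzymes, the activating enzyme gene UBA7 was 5.91 ± 0.715 TPM in LF3 and 3.09 ± 0.411 TPM in CON (0.76 ± 0.11), and UBE2L6, the conjugating enzyme, 126 ± 7.15 TPM in LF3 and 96.1 ± 1.27 TPM in CON (0.39 ± 0.046), a call that was lost after quantile normalization (0.074, limma adjusted p = 0.113).

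The remaining antiviral effectors were split. SAMD9 and SAMD9L, neighbours on chromosome 7 whose products restrict poxviruses and cell growth, rose together: SAMD9 stood at 23.2, 21.0 and 18.8 TPM in LF3 and at 6.75, 7.10 and 6.45 TPM in CON (1.5 ± 0.082). SAMD9L stood at 5.89, 6.31 and 4.89 TPM in LF3 and at 1.32, 1.23 and 1.41 TPM in CON (1.52 ± 0.10). Their ratios of means were 3.10 and 4.32. XAF1, a pro-apoptotic partner of XIAP, also rose but was low, at 2.82, 2.83 and 1.84 TPM in LF3 and 1.07, 1.12 and 1.17 TPM in CON (0.71 ± 0.13).

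BST2 and ISG20 fell. BST2, also called tetherin, which holds budding virus on the cell surface, stood at 61.3, 60.3 and 55.1 TPM in LF3 and at 135.7, 138.4 and 133.3 TPM in CON (-1.19 ± 0.048, limma adjusted p = 1.39e-09). ISG20, an exonuclease that degrades single-stranded RNA, stood at 9.44, 7.98 and 8.94 TPM in LF3 and at 22.4, 23.9 and 23.8 TPM in CON (-1.32 ± 0.072). In both genes every LF3 library lay far below every CON library, with ratios of means of 0.434 for BST2 and 0.376 for ISG20.

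CMPK2 and RSAD2, a neighbouring pair on chromosome 2, averaged under 1 TPM and were not tested. CMPK2, a mitochondrial nucleotide kinase, was 1.34, 1.57 and 1.67 TPM in LF3 and 0.140, 0.110 and 0.0400 TPM in CON, which averaged 1.53 ± 0.169 TPM in LF3 and 0.0967 ± 0.0513 TPM in CON. Its ratio of means, 15.8, was above the 8.03 of IFIT3 but rests on values near 0 in CON. RSAD2, which encodes the radical SAM enzyme viperin, was 0.620, 0.440 and 0.360 TPM in LF3 and 0.220, 0.130 and 0.330 TPM in CON. Both were called higher with no filter, over 17280 genes (1.20 ± 0.068 for CMPK2 and 0.26 ± 0.084 for RSAD2; limma adjusted p = 3.05e-06 and 0.0267), and RSAD2 stayed under 1 TPM in every library.

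The genes named only for their induction by interferon differed most among themselves. IFI35, a partner of NMI that is released as a danger signal, stood at 62.2, 56.4 and 60.6 TPM in LF3 and at 9.57, 8.59 and 12.5 TPM in CON (2.45 ± 0.11, limma adjusted p = 2.56e-09). IFI27, a mitochondrial protein widely used in blood signatures of interferon, stood at 13.9, 10.4 and 10.99 TPM in LF3 and at 27.5, 35.8 and 35.6 TPM in CON (-1.41 ± 0.12, limma adjusted p = 5.89e-07). These were among the largest changes in each direction, and neither gene's groups overlapped. IFI6, a mitochondrial protein related to IFI27 and one that inhibits apoptosis, was 105, 107 and 108 TPM in LF3 and 106, 105 and 104 TPM in CON, with overlapping groups (0.017 ± 0.036, limma adjusted p = 0.663). IFI44 was 37.3, 43.7 and 35.9 TPM in LF3 and 37.0, 37.1 and 35.4 TPM in CON (0.085 ± 0.070, limma adjusted p = 0.273). IFI44L, its neighbour on chromosome 1, was 1, 1.52 and 0.810 TPM in LF3 and 1.23, 1.04 and 1.06 TPM in CON (-0.013 ± 0.13, limma adjusted p = 0.930). The groups of both overlapped. IFI6 and IFI44 were called lower after median-ratio rescaling (-0.25 and -0.18) and quantile normalization (-0.31 and -0.28).

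Of the pair of chemokine genes, neighbours on chromosome 4 whose products draw T cells through the receptor CXCR3, CXCL10 rose and CXCL11 was not called. CXCL10 stood at 4.71, 2.51 and 3.10 TPM in LF3 and at 1, 1.04 and 0.8 TPM in CON (1.16 ± 0.16, limma adjusted p = 4.36e-05). CXCL10 passed the filter of 1 TPM through LF3 (mean 3.44 TPM), as its CON mean was 0.947 TPM. CXCL11 was 4.33, 5.62 and 5.32 TPM in LF3 and 5.48, 5.54 and 5.23 TPM in CON (-0.081 ± 0.095, limma adjusted p = 0.437), with a call of lower once rescaled by median ratio (-0.31, limma adjusted p = 0.0103). The LF3 libraries were the more spread for both chemokines.

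**Figure D2:**
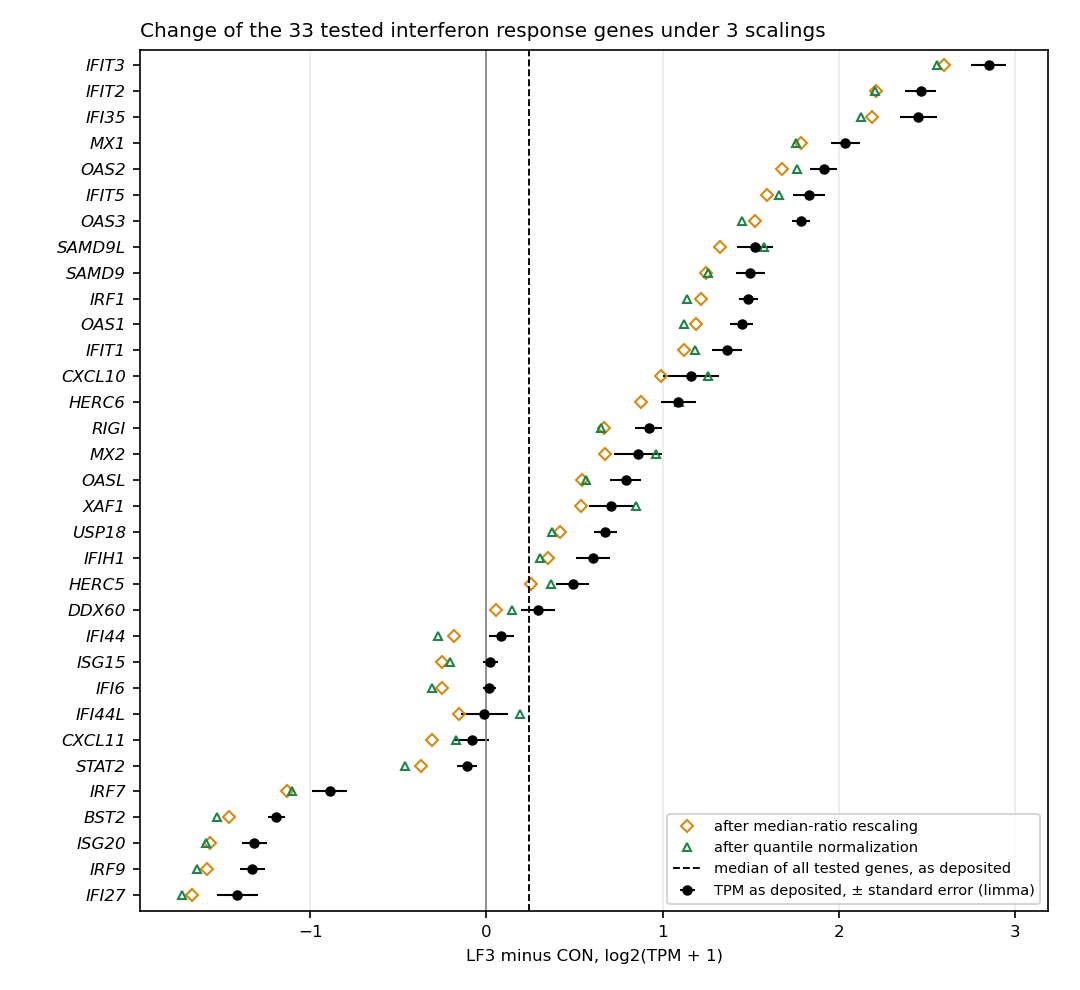
Change of the 33 tested members, LF3 minus CON in log2(TPM + 1), sorted from the largest rise to the largest fall. Black points are deposited TPM with limma standard errors, orange diamonds and green triangles the rescaled values, and the dashed line at 0.24 the median of all tested genes. IFIT3 is at the top with 2.85 and IFI27 at the bottom with -1.41. ISG15, IFI6 and IFI44 cross 0 in both rescalings, and IFI44L (-0.013) only after quantile normalization (0.19).

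Ordered by mean level, the list differed between the groups. In LF3 the leading members were ISG15 (240 TPM), IFI6 (107 TPM), IRF1 (79.7 TPM), OAS3 (62.1 TPM), IFI35 (59.7 TPM), IFIT3 (59.6 TPM) and BST2 (58.9 TPM). OAS3, IFI35, IFIT3 and BST2 lie within their spread of each other. In CON the order was ISG15 (236 TPM), BST2 (136 TPM), IFI6 (105 TPM), IFI44 (36.5 TPM), STAT2 (35.2 TPM), IFI27 (32.95 TPM) and IRF9 (29.8 TPM), where IFI44, STAT2 and IFI27 overlapped. Members that averaged 20 TPM or more over all libraries were higher in 7 of 14 cases and lower in 3, and members with a mean of 1 to 20 TPM were higher in 15 of 19 cases and lower in 2. Among all tested genes the shares called higher ran the other way, at 60.3% of genes with at least 20 TPM and 46.6% of genes below it. That contrast was not tested, and it uses deposited calls only. The cut is on the mean of both groups, so some members pass it through the group where they are high. MX1 averaged 33.9 TPM in LF3 and 7.53 TPM in CON, and IFI27 11.7 TPM in LF3 and 32.95 TPM in CON. After median-ratio rescaling STAT2, ISG15, IFI6 and IFI44, all above the cut, were called lower.

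LF3 replicate 3 was often the lowest of its group. It had the lowest LF3 value in 24 of 33 tested members (72.7%), against 55.03% of all tested genes. Without it, 22 members were called higher and 5 lower, as with all libraries, and the median was 0.86.

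The genes that start and carry the signal were looked up from lists of the same pathway. Of 21 interferon genes, 9 were in the table and 1 passed the filter; the other 12 were not analysed here. That gene was IFNE, the epithelial interferon epsilon, at 3.22, 2.21 and 1.55 TPM in LF3 and 0.5, 0.52 and 0.86 TPM in CON (1.01 ± 0.17, limma adjusted p = 0.000238), with no overlap. IFNE passed the filter only through LF3 (mean 2.33 TPM), as every CON library was under 1 TPM. Its being tested and its direction are therefore tied. IFNB1, the interferon beta gene, was 0.340, 0.170 and 0 TPM in LF3 and 0.180, 0.190 and 0 TPM in CON. The other 7 interferon genes stayed at or under 0.73 TPM in every library, and copies of the interferon alpha and lambda genes are so alike that their reads cannot be assigned with confidence.

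The receptor and kinase genes were mostly lower. Of 9 tested genes for receptors and JAK kinases, 1 was higher and 7 lower (1 and 8 after median-ratio rescaling), against 53.2% higher and 32.3% lower over all tested genes (42.6% and 42.7% rescaled), and the median log2 fold change was -0.59. The gene that rose was IFNAR1, at 27.2, 27.5 and 24.4 TPM in LF3 and 14.2, 15.0 and 13.6 TPM in CON (0.84 ± 0.066). IFNAR2, the other chain of the receptor, was 17.1, 17.5 and 17.6 TPM in LF3 and 20.8, 19.9 and 18.98 TPM in CON (-0.18 ± 0.058, limma adjusted p = 0.0122), a call lost without CON replicate 1 (limma adjusted p = 0.0590). With all 6 libraries, the receptor chains were called in opposite directions. TYK2, the kinase on IFNAR1, was 21.5 ± 1.24 TPM in LF3 and 34.96 ± 0.504 TPM in CON (-0.68 ± 0.056), and IFNGR2, a chain of the interferon gamma receptor, 83.4 ± 5.10 TPM in LF3 and 175 ± 3.6 TPM in CON (-1.06 ± 0.048). IL10RB, a chain shared by the receptors for interferon lambda and interleukin-10, was 34.8, 30.8 and 32.1 TPM in LF3 and 49.96, 48.5 and 49.97 TPM in CON (-0.59 ± 0.054), with no overlap.

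**Figure D3:**
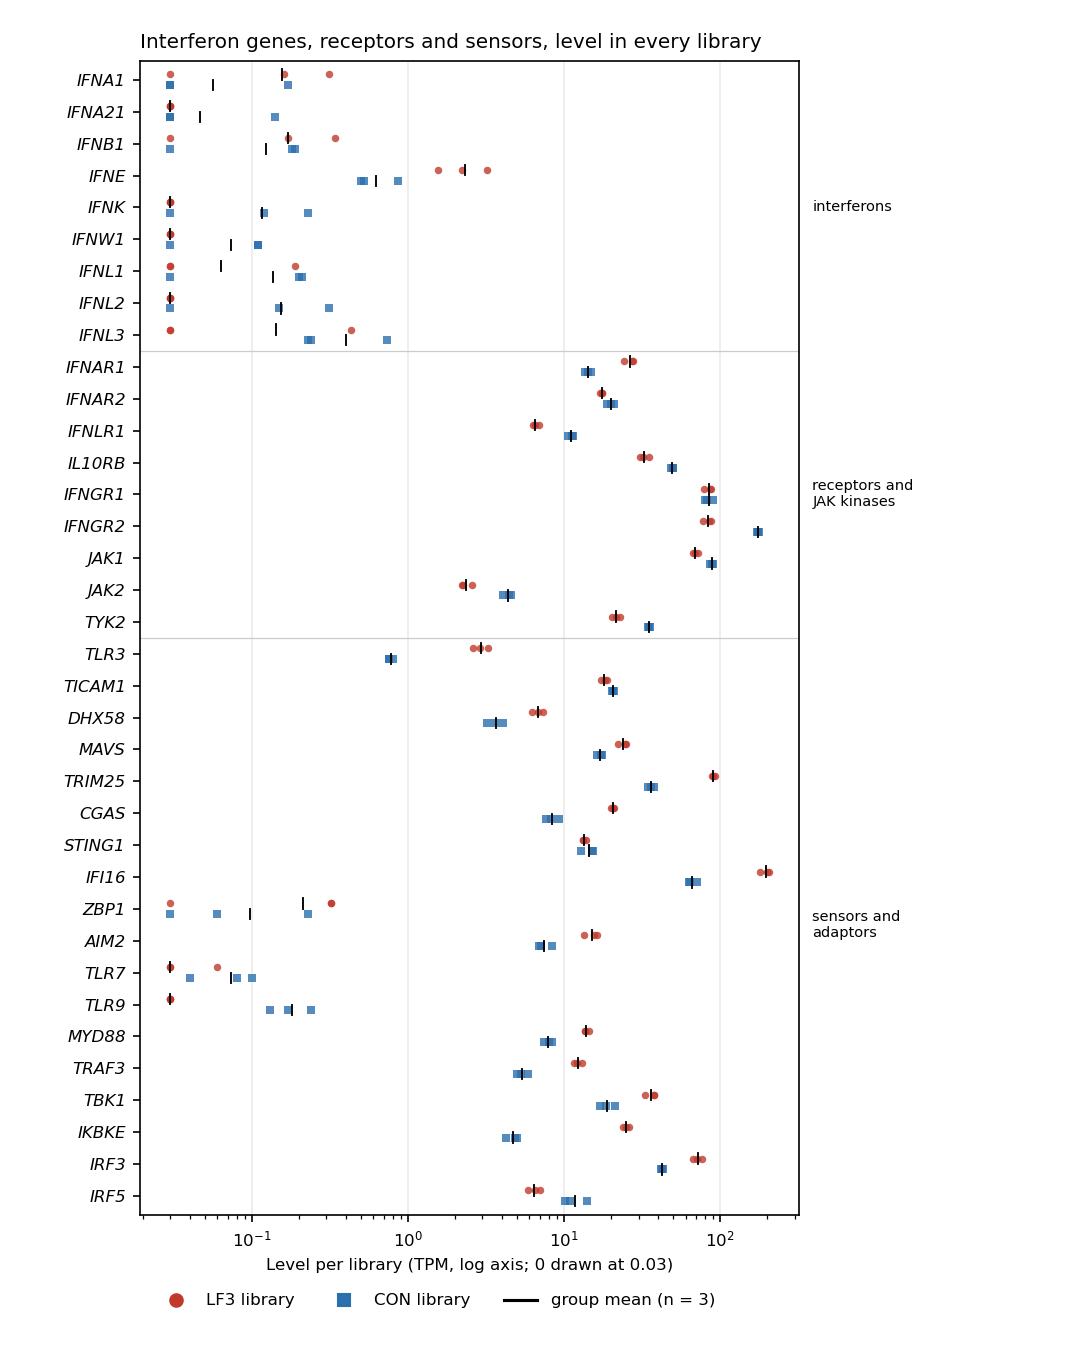
Level in TPM, on a log axis, of the interferon genes, the receptor and kinase genes and the sensors and adaptors found in the table, with 3 LF3 libraries as red circles, 3 CON libraries as blue squares and black ticks at the means, and with 0 drawn at 0.03. IFNE is the only interferon gene that reaches 1 TPM, IFNAR1 lies to the right in LF3 while the other receptor and kinase genes lie to the left or overlap, and most sensors above 1 TPM lie to the right.

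Sensors and adaptors upstream of interferon were mostly higher. Of 15 tested genes, 12 were higher and 2 lower (12 and 3 after median-ratio rescaling), with a median of 0.90, where all tested genes were 53.2% higher and 32.3% lower (42.6% and 42.7% rescaled). TLR3, 1 of the 12, passed the filter only through LF3 (mean 2.92 TPM, against 0.773 TPM in CON). For TLR3, being tested and direction are therefore tied. IKBKE, a kinase that activates IRF3, stood at 26.2, 23.8 and 24.8 TPM in LF3 and at 4.23, 5 and 4.88 TPM in CON (2.19 ± 0.076). TRIM25, the ligase that acts on RIGI, stood at 90.6 ± 2.13 TPM in LF3 and 36.2 ± 1.56 TPM in CON (1.30 ± 0.047), the DNA sensor IFI16 at 196 ± 14.0 TPM in LF3 and 66.4 ± 4.09 TPM in CON (1.55 ± 0.060) and CGAS at 20.5 ± 0.468 TPM in LF3 and 8.41 ± 0.854 TPM in CON (1.19 ± 0.075). Each of these had groups that did not overlap. IRF3, which the sensors activate, was 71.8 ± 4.82 TPM in LF3 and 42.5 ± 0.497 TPM in CON (0.74 ± 0.053). Of 17 genes that restrain the pathway, 10 were higher and 6 lower (6 and 7 after median-ratio rescaling), shares near those of all tested genes (53.2% and 32.3%, and 42.6% and 42.7% rescaled). The leading calls there were PTPN11 (1.01 ± 0.054), TRIM28 (0.92 ± 0.042), ADAR (0.67 ± 0.036) and IRF2BP1 (1.21 ± 0.073), of which ADAR edits self RNA so that it is not sensed.

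A wider list of 49 other interferon-stimulated genes was mostly higher. Like the members, it was chosen with earlier results of these data known. Of 48 tested, 39 were higher and 6 lower (30 and 9 after median-ratio rescaling), beside 53.2% and 32.3% of all tested genes (42.6% and 42.7% rescaled), and the median log2 fold change was 0.62. GBP4, called higher, passed the filter only through LF3 (mean 1.84 TPM, against 0.373 TPM in CON). GBP5, called lower, passed it only through CON (mean 1.55 TPM, against 0.55 TPM in LF3). For GBP4 and GBP5, being tested and direction are therefore tied. The 4 with the smallest adjusted p were TRIM14, an adaptor of MAVS, at 42.8 ± 1.07 TPM in LF3 and 7.27 ± 0.193 TPM in CON (2.40 ± 0.056); NMI, the partner of IFI35, at 89.8 ± 4.80 TPM in LF3 and 16.6 ± 0.702 TPM in CON (2.37 ± 0.056); the immunoproteasome subunit PSMB8 at 299 ± 12.4 TPM in LF3 and 78.7 ± 3.49 TPM in CON (1.91 ± 0.045); and PNPT1, a mitochondrial RNA exonuclease, at 37.0 ± 2.61 TPM in LF3 and 4.30 ± 0.535 TPM in CON (2.85 ± 0.087). IFI35 and its partner NMI thus differed by 2.45 and 2.37 on the log2 scale. Of the 6 lower genes TRIM5 fell furthest, at 17.2 ± 0.676 TPM in LF3 and 45.8 ± 2.72 TPM in CON (-1.36 ± 0.059). LF3 replicate 3 was the lowest LF3 library in 40 of these 48 genes (83.3%).

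**Figure D4:**
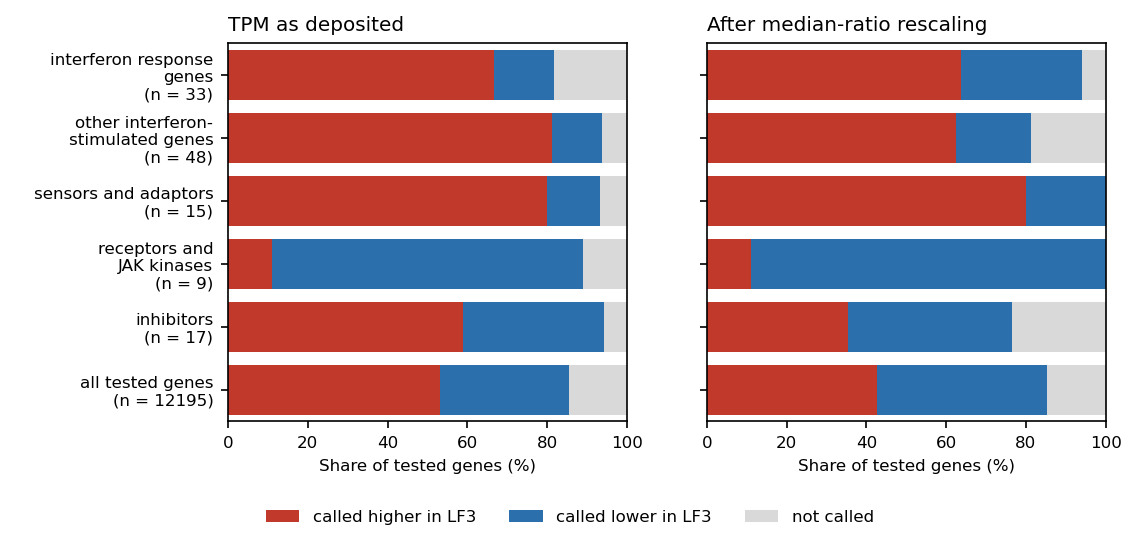
Share of tested genes called higher in LF3 (red), called lower in LF3 (blue) or not called (grey) in the 35-gene list and related lists, with all 12195 tested genes at the bottom; the left panel is deposited TPM and the right panel median-ratio rescaled. The interferon response genes are 66.7% higher in the left panel, where all tested genes are 53.2%, and the receptor and kinase list is the one with more lower than higher calls in both panels.

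The label of a squamous epithelial line was checked against markers. Their summed level was 1704 to 1738 TPM in LF3 and 1212 to 1236 TPM in CON, with KRT5, TP63, CDH1 and EPCAM present and KRT14 under 1 TPM in every library. Of 9 tested squamous markers 5 were higher and 3 lower (3 and 5 after median-ratio rescaling). As deposited these shares, 55.6% and 33.3%, were near the 53.2% and 32.3% of all tested genes (42.6% and 42.7% rescaled). KRT5 (454 TPM in LF3 and 102 TPM in CON) and SFN (608 TPM in LF3 and 339 TPM in CON) carried the higher sum. KRT17 fell to 58.8 TPM in LF3, against 200.01 TPM in CON, and KRT16 and DSG3 fell as well. Of 11 leukocyte markers 8 were in the table, summing to 48.5 to 52.6 TPM in LF3 and 331 to 343 TPM in CON, nearly all of it the lysosomal gene CD68, while PTPRC, which marks all leukocytes, was at most 0.02 TPM. Fibroblast markers summed to 6.85 to 7.69 TPM in LF3 and 14.8 to 15.8 TPM in CON, with COL3A1 and DCN at most 0.03 TPM. COL1A1 (4.31 TPM in LF3 and 9.27 TPM in CON), PDGFRB (1.91 and 2.55 TPM) and LUM (0.62 and 2.52 TPM) carried that sum. These 3 were the tested fibroblast markers, and all were called lower, where 32.3% of all tested genes were. LUM passed the filter only through CON. Endothelial markers summed to 6.31 to 7.51 TPM in LF3 and 0.50 to 0.62 TPM in CON, with KDR at most 0.04 TPM. CDH5 made up nearly all of the LF3 sum, at 5.93, 5.7 and 6.93 TPM in LF3 and 0.11 TPM in each CON library, while PECAM1 averaged 0.23 TPM in LF3 and 0.25 TPM in CON. The part of these genes in the results was not tested.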

How the data were processed

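RNA of 6 CAL-27 sphere libraries (3 LF3, 3 CON, grouped by title) was sequenced on a BGISEQ500, single-end with 50 bases, per the labels' protocols. The authors deposited TPM per gene, with every library summing to the same total, so depth is unknown. Per the submitters' processing notes, tools were HISAT and Bowtie2, with no versions, and the build was GRCm38.p6 (mouse), while identifiers and symbols are human; all 35 members have the same NCBI identifier in RefSeq (GRCh38.p14), used for names, neighbours and promoter windows. Use of strand and treatment of reads shared by similar genes: not given in the sources used here.

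Values were tested as log2(TPM + 1) with limma 3.58.1 (R 4.3.3), moderated with a mean-variance trend, two-sided, on the 12195 of 17280 genes averaging 1 TPM or more, with Benjamini-Hochberg adjustment over all of them and a threshold of 0.05. With 3 against 3 an exact permutation test for 1 gene cannot go below p = 0.1, so none is given. The procedure was tested on simulated data in which few genes changed, in both directions. Those data held no shift over all genes like the one seen here, so they do not test the scaling. Alternatives were other pseudocounts, filters, scalings and variance models, a replicate block and leaving out each library. All tested members are named. From each related list up to 4 called genes with the smallest adjusted p are named, plus IFNAR1, IFNAR2, IFNB1 and IRF3. UBA7, UBE2L6, TRIM5, TLR3, GBP4 and GBP5 were added after their values were seen. Members and lists were chosen with earlier results of these data known. Lists got no set test. Some genes of the related lists are not reported here and were left out of the list counts. Figures used matplotlib 3.10.9 (Python 3.11.15).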

Additional observations from a re-analysis of the deposited data

How the results depend on the processing

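Of the 27 called members, 26 kept direction and call under each of the 16 alternatives that tested them; the exception was DDX60. Members called lower numbered 5 as deposited, 10 with median-ratio rescaling and 9 with quantile normalization. Across the 12195 tested genes the median difference was 0.24 (log2) as deposited, -0.0055 with median-ratio rescaling and 0.026 with quantile normalization. Members called higher numbered 17 to 24 under the alternatives, with 17 of them where a filter of a mean of 5 TPM left fewer genes tested. The median log2 fold change of tested members, 0.79, was 0.996 and 0.87 with pseudocounts of 0.1 and 0.5, 0.67 with the 5 TPM filter, 0.54 with median-ratio rescaling, 0.65 with quantile normalization, and 0.73 to 0.86 when a library was left out. Over all tested genes 5195 to 6823 were called higher where 6489 were as deposited, and 3009 to 5205 lower where 3938 were. The sign turned only for members not called as deposited. ISG15 was -0.25 after median-ratio rescaling, -0.21 after quantile normalization and -0.017 to 0.049 when a library was left out, below 0 without CON replicate 2 or LF3 replicate 3 (-0.0087). IFI6 was -0.25 and -0.31 and IFI44 -0.18 and -0.28 in those scalings. IFI44L was 0.19 after quantile normalization, 0.037 with array weights and -0.15 to 0.091 with 1 library omitted, above 0 without LF3 replicate 1 or 3 or CON replicate 1 (0.019, 0.091 and 0.028). CXCL11 ran between -0.14 and 0.012 with 1 library omitted, above 0 without LF3 replicate 1. With the replicate number as a block, 22 members were called higher and 5 lower and over all genes 6536 and 3986, so the block changed no member's call. Same-numbered libraries correlated at 0.048, 0.11 and 0.16 in their deviations from the group means, and libraries of unlike number at -0.17 to 0.074. CON replicate 1 correlated best with LF3 replicate 2 (0.074) and the other 5 libraries with their own number. Whether the numbers mark pairs was not tested, and the main fit used no block. TPM keeps no depth, so how far low values such as RSAD2 are set by few reads is unknown.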
